A study of Mus musculus with 8 samples.

Results

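Regulators of G protein signalling (RGS proteins) were described in visceral white adipose tissue (vWAT) through 9 genes: *Rgs2*, *Rgs3*, *Rgs4*, *Rgs10*, *Rgs12*, *Rgs14*, *Rgs16*, *Rgs18* and *Rgs19*. They were found by symbol among the 31053 Ensembl genes of the deposited count table, and all 9 were present. The 8 libraries came from the epididymal depot of male C57BL/6 mice aged 8 months, with 1 library per mouse, 4 mice of the WT genotype and 4 of the KIKO genotype. KIKO mice are a knock-in and knock-out model of Friedreich's ataxia, altered in all cells of the body, and WT mice are their unaltered controls. The question put to these genes was which RGS proteins vWAT expresses and how their RNA compares between KIKO and WT mice. The set was built around *Rgs2* and chosen by gene family with the KIKO and WT levels of these 8 mice, and so their differences, already known. The differences of its members are therefore given as a description, without p values.

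G protein-coupled receptors act through heterotrimeric G proteins, whose alpha subunit is active while it holds GTP. RGS proteins bind the active alpha subunit and speed its hydrolysis of GTP, so that the signal ends sooner. In adipose tissue such receptors carry the signals of catecholamines, adenosine, lipids and peptide hormones, which govern lipolysis, vascular tone and immune cell movement. *Rgs2*, *Rgs3*, *Rgs4*, *Rgs16* and *Rgs18* belong to the R4 subfamily, *Rgs10*, *Rgs12* and *Rgs14* to the R12 subfamily, and *Rgs19* to the RZ subfamily. RGS2 is known for its preference for the alpha subunit Gq over Gi.

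Totals ranged from 2602189 to 3478539 counts per library. The first principal component placed WT mouse 3, at 12.6, within the KIKO span of 4.04 to 24.0, whereas the other WT mice ran from -38.6 to -8.43. In each library, the deviation of genes from their mean level was set against transcript length. The Spearman correlation was -0.11 in WT mouse 3, -0.21 to -0.08 in KIKO mice and 0.11 to 0.26 in the other WT mice. Its part in the position of WT mouse 3 was not tested. Leaving WT mouse 3 out raised the number of genes that passed from 75 to 654. Of the members it added *Rgs10*. Of the other genes named here that were tested with all mice but did not pass, it added 9: *Arrdc3*, *Kalrn*, *Adcy4*, *Rapgef3*, *S1pr2*, *Adra1b*, *S1pr1*, *Dusp1* and *Ubr1*. Their log2 fold changes without that mouse were -1.38, -1.31, -0.81, -0.56, 1.09, 1.06, -0.68, -0.82 and -0.54, with edgeR adjusted p of 0.0168 for *Arrdc3* to 0.0392 for *Ubr1*. *Rasd1*, which had too few counts to be tested with all mice, also passed without WT mouse 3. There the filter kept it only through KIKO mice, in which it was high.

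The sequence directly upstream of *Rgs2* is shown because *Rgs2* was the tested member with the largest difference and because genes that respond to cAMP are among the lists described here. It is taken from RefSeq (build GRCm38), chr1:144004162-144004399 on the minus strand, 5′ to 3′, and ends at the base before the annotated start of the gene. Capitals mark matches to the short core of the cAMP response element, TGACG or its reverse complement CGTCA, searched on both strands.
Rgs2: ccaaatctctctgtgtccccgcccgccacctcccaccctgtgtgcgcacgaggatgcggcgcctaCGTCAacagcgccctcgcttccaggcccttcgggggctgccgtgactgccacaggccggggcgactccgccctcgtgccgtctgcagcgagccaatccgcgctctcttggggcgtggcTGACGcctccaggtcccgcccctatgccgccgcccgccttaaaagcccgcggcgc
The cores lay 173 to 169 and 55 to 51 bases upstream of the annotated start. Promoter windows of 250 bases were found for 7 of the 9 members, and *Rgs14* and *Rgs18* had none in the table used. A core was present in the windows of 3 of these members (*Rgs2*, *Rgs4* and *Rgs12*) and in those of 19.8% of 27025 genes. The full element TGACGTCA, which holds both cores, was in the window of no member and of 1.77% of genes. The AP-1 motif TGACTCA, or TGAGTCA on the other strand, was in the window of *Rgs12* and of 5.16% of genes. Such matches describe letters only and do not show binding.

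*Rgs2* (ENSMUSG00000026360, chromosome 1 of GRCm38, 143999338 to 144004161, minus strand) had the largest fold difference between genotypes of the RGS genes with enough counts to be tested. Its level, as TMM-scaled CPM (a gene's count relative to the library total), was 279.9, 166.3, 149.3 and 140.0 in WT mice 1 to 4, and 63.0, 110.3, 50.2 and 74.7 in KIKO mice 1 to 4. The genotypes did not overlap, with WT mouse 1 far above the other WT mice and KIKO mouse 2 nearest to them. These values stood on 418 to 883 counts per WT library and 155 to 276 per KIKO library. The WT mean was 184 ± 65.0 CPM and the KIKO mean 74.6 ± 25.8 CPM (± SD, 4 mice each). The log2 fold change was -1.31 with a standard error of 0.24. In whole tissue, fewer cells of a type and less RNA per cell cannot be told apart.

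**Figure D1:**
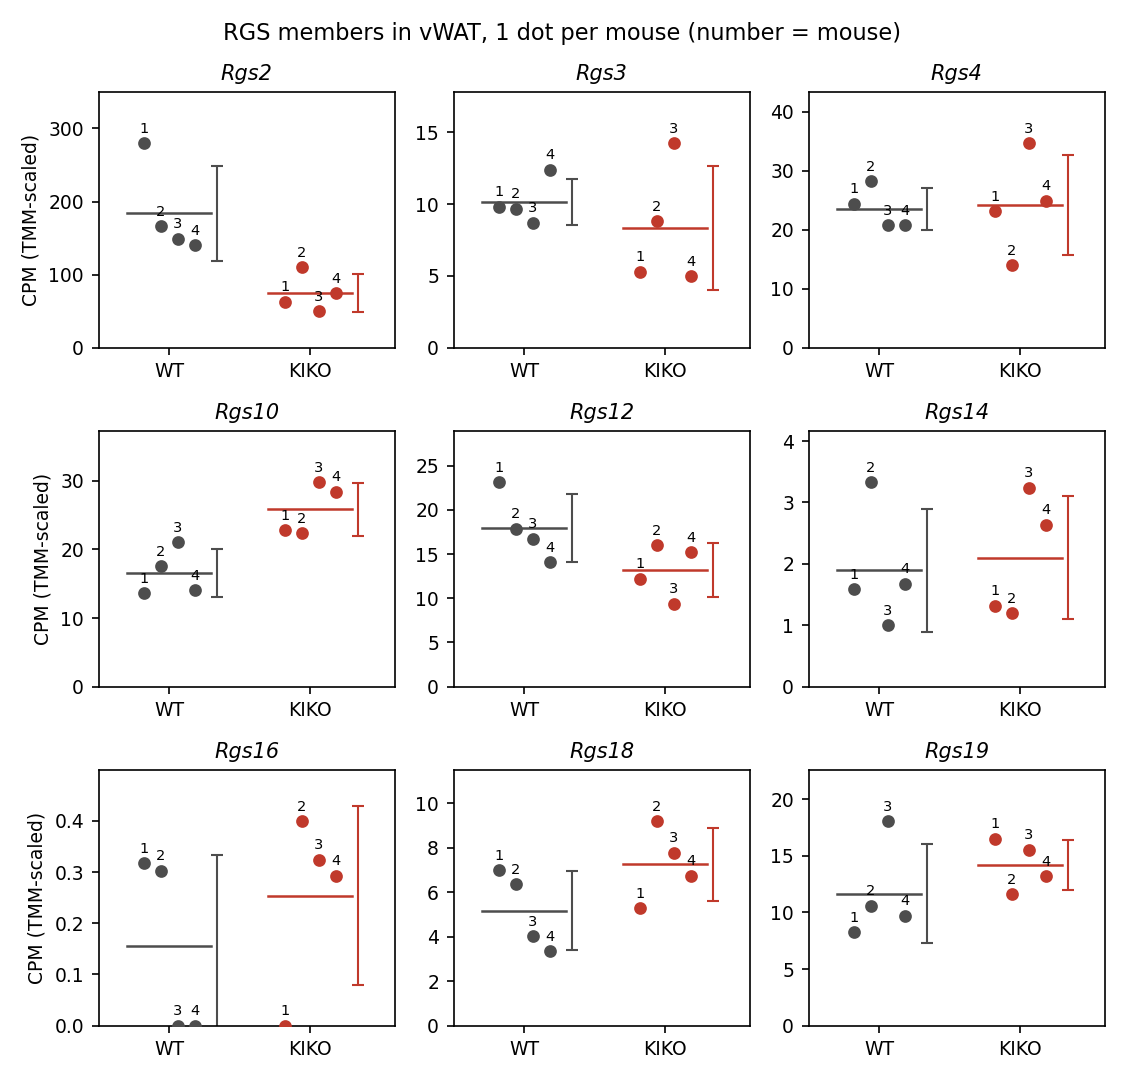
CPM scaled by TMM of the 9 RGS members in each mouse, with 1 panel per gene and its own y axis from 0; dots are mice, numbered within their genotype, horizontal lines are means and vertical bars are SD (n = 4 each). The KIKO mice of *Rgs2* lie between 50.2 and 110.3 CPM, all below the WT mice at 140.0 to 279.9 CPM, and the KIKO mice of *Rgs10* lie above the WT mice.

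Of the 9 members, 7 had enough counts for edgeR's quasi-likelihood test across the table, and *Rgs2* alone of these passed at an adjusted p under 0.05, as a lower level in KIKO mice. Across all 11080 genes tested, 75 passed, which is 0.677%. The groups did not overlap for 2 of the 7 members, *Rgs2* and *Rgs10*, against 8.45% of all genes tested. The median log2 fold change was 0.05 over the 7 members and -0.01 over all genes tested. *Rgs2* no longer passed when either of WT mice 2 and 4 was left out, at log2 fold changes of -1.35 and -1.42. The same held for KIKO mice 1, 3 and 4, at -1.24, -1.15 and -1.31. It passed without WT mouse 1, at -1.03, without WT mouse 3, at -1.40, and without KIKO mouse 2, at -1.55.

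Among the other R4 members, *Rgs4* (chromosome 1, 169741477 to 169747642, minus strand), a regulator of Gi and Gq whose protein is short-lived, had nearly the same mean in both genotypes. Its level was 24.4, 28.2, 20.8 and 20.8 CPM in WT mice and 23.1, 13.99, 34.7 and 24.9 CPM in KIKO mice. KIKO mouse 2 was the lowest and KIKO mouse 3 the highest of all mice, so the KIKO range enclosed the WT range. The log2 fold change was 0.05 with a standard error of 0.22, and its sign was negative in 4 of the 17 alternative settings.

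*Rgs3* (chromosome 4, 62559847 to 62704001, plus strand), which encodes several isoforms of different length, was at 9.83, 9.69, 8.70 and 12.4 CPM in WT mice and at 5.28, 8.79, 14.3 and 4.98 CPM in KIKO mice. KIKO mice 1 and 4 were below all WT mice, whereas KIKO mouse 3 was above all of them. The log2 fold change of -0.29 with a standard error of 0.31 ranged from -0.70 without KIKO mouse 3 to -0.10 without KIKO mouse 4, and passed in no setting.

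*Rgs18* (chromosome 1, 144752683 to 144775435, minus strand), known from platelets, megakaryocytes and other blood cells, was at 6.97, 6.36, 4.02 and 3.35 CPM in WT mice and at 5.28, 9.19, 7.77 and 6.74 CPM in KIKO mice. The ranges overlapped, and the log2 fold change was 0.46 with a standard error of 0.30. Of 10 platelet and megakaryocyte markers, *Gp1ba* and *Tubb1* had no count in any library, and 2 were tested. The sum of the 10 was 125 to 141 CPM in WT mice against 183 to 221 CPM in KIKO mice, with *Pf4* the marker that passed as higher. Because only 2 of the 10 had enough counts to be tested, the sum does not measure how many of these cells were present. The part of these cells in the level of *Rgs18* was not tested.

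*Rgs16* (chromosome 1, 153740349 to 153745468, plus strand) had 5 counts in all 8 libraries together, at most 1 per library. At this depth, no level could be compared between genotypes.

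The R12 member *Rgs10* (chromosome 7, 128373621 to 128418758, minus strand), a small RGS protein known from macrophages and microglia, was the second member whose groups did not overlap. It was at 13.6, 17.6, 21.1 and 14.1 CPM in WT mice and at 22.8, 22.4, 29.8 and 28.4 CPM in KIKO mice. All KIKO mice were above all WT mice, with WT mouse 3 closest to them. The WT mean was 16.6 ± 3.48 CPM and the KIKO mean 25.8 ± 3.82 CPM (± SD, 4 mice each), and the log2 fold change was 0.64 with a standard error of 0.18. This difference did not pass over all genes. Without WT mouse 3 it did, at 0.78. When length and GC content were corrected for, it was 0.49 and did not pass. Of 10 macrophage markers, 8 had a fold change above 0 and *Lyz2* passed as higher. Of the 2 below 0, *Mertk* was at -0.97 and did not pass. The summed level of the 10 markers was 1944 to 2174 CPM in WT mice against 2164 to 2806 CPM in KIKO mice. Their part in the level of *Rgs10* was not tested.

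*Rgs12* (chromosome 5, 34949445 to 35039644, plus strand), the largest of these proteins, with domains that bind Ras and G alpha besides its RGS domain, was at 23.1, 17.9, 16.7 and 14.1 CPM in WT mice. In KIKO mice it was at 12.2, 16.0, 9.39 and 15.2 CPM. KIKO mice 2 and 4 lay within the WT range and KIKO mice 1 and 3 below it. The log2 fold change was -0.45 with a standard error of 0.22. *Rgs14* (chromosome 13, 55369732 to 55384687, plus strand), a relative with similar domains, had 24 counts over the WT and 26 over the KIKO libraries and was below the limit of the filter. The ratio of KIKO to WT from these sums was 1.12, with a 95% exact interval of 0.618 to 2.04 that covers counting error only.

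The RZ member *Rgs19* (chromosome 2, 181688419 to 181693977, minus strand), also known as GAIP, was at 8.24, 10.6, 18.1 and 9.71 CPM in WT mice and at 16.5, 11.6, 15.6 and 13.2 CPM in KIKO mice. WT mouse 3 was the highest of all mice, and the other WT mice were below all KIKO mice. The log2 fold change was 0.29 with a standard error of 0.25, and ranged from 0.16 without WT mouse 1 to 0.58 without WT mouse 3. It passed in no setting. *Gipc1*, which encodes a PDZ protein that binds the tail of RGS19, was at 2.85 to 8.18 CPM in WT mice against 7.13 to 13.2 CPM in KIKO mice (log2 fold change 0.71 with a standard error of 0.32, adjusted p = 0.279 in edgeR).

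Most other RGS genes were near or at 0 in vWAT. *Rgs5*, a marker of pericytes and other mural cells, was the exception, at 194, 208, 182 and 195 CPM in WT mice and 172, 143, 183 and 160 CPM in KIKO mice. The ranges overlapped through WT mouse 3 and KIKO mouse 3, and the log2 fold change of -0.24 with a standard error of 0.12 did not pass (edgeR, adjusted p = 0.317). *Rgs7* was at a mean of 7.08 CPM in WT mice against 6.84 CPM in KIKO mice and did not pass either (edgeR, adjusted p = 0.971). *Rgs8*, *Rgs21* and *Rgs22* had no count. A count of 0 allows a level of up to 0.879 to 1.199 CPM, depending on the library. *Rgs1*, *Rgs6*, *Rgs9*, *Rgs11*, *Rgs13* and *Rgs20* had 16, 48, 4, 10, 1 and 5 counts in all. *Rgs17*, which forms the RZ subfamily with *Rgs19* and *Rgs20*, had 3, 4, 3 and 7 counts in WT mice but 1, 0, 0 and 0 in KIKO mice. The ratio of KIKO to WT from the sums of 1 and 17 counts was 0.0608, with a 95% exact interval of 0.00145 to 0.388 for counting error. It was below the filter. In the fit with no filter its adjusted p was 0.0638 in edgeR, which did not pass.

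**Figure D2:**
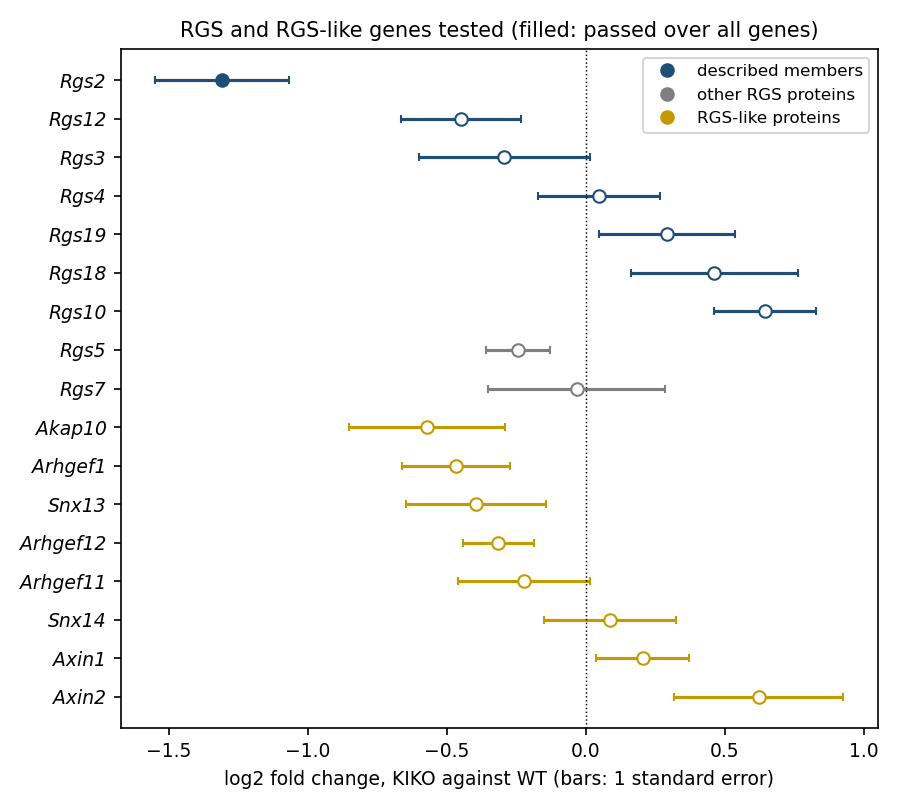
Log2 fold change of KIKO against WT mice on the x axis for each tested RGS gene and each tested gene with an RGS-like domain, with bars of 1 standard error; filled dots passed over all genes. *Rgs2*, at -1.31, is the only filled dot, and *Rgs10*, at 0.64, is the highest of the members.

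Levels were ranked between genes as CPM per kb of annotated exons. In WT mice *Rgs2* was highest, at a mean of 50.7 CPM per kb and a range of 38.6 to 77.2, followed by *Rgs5* at 42.9 with a range of 40.1 to 45.8, and these ranges overlapped. *Rgs10* followed at 9.69, *Rgs4* at 7.59 and *Rgs19* at 5.23 CPM per kb, with overlap between neighbours. All WT values of *Rgs19* exceeded those of *Rgs18*, at 2.55 CPM per kb, which overlapped *Rgs12* at 2.12. *Rgs7*, *Rgs3* and *Rgs14* followed at 1.18, 0.940 and 0.448 CPM per kb. In KIKO mice *Rgs5* was highest, at 36.2 CPM per kb with a range of 31.6 to 40.3, and *Rgs2* second, at 20.6 with a range of 13.8 to 30.4, below that of *Rgs5*. The KIKO range of *Rgs10*, 13.1 to 17.4 around a mean of 15.1, overlapped that of *Rgs2*. From *Rgs10* down to *Rgs6* the order was that of WT mice. The labels describe a digital mRNA-seq service and the paper a stranded mRNA kit. Where reads come from 1 end of a transcript, a level per kb understates long transcripts. The first place of *Rgs2* in WT mice depends on the division by length. In CPM the WT mean was 195 for *Rgs5* and 184 for *Rgs2*, and *Rgs2* exceeded *Rgs5* in WT mouse 1 only.

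**Figure D3:**
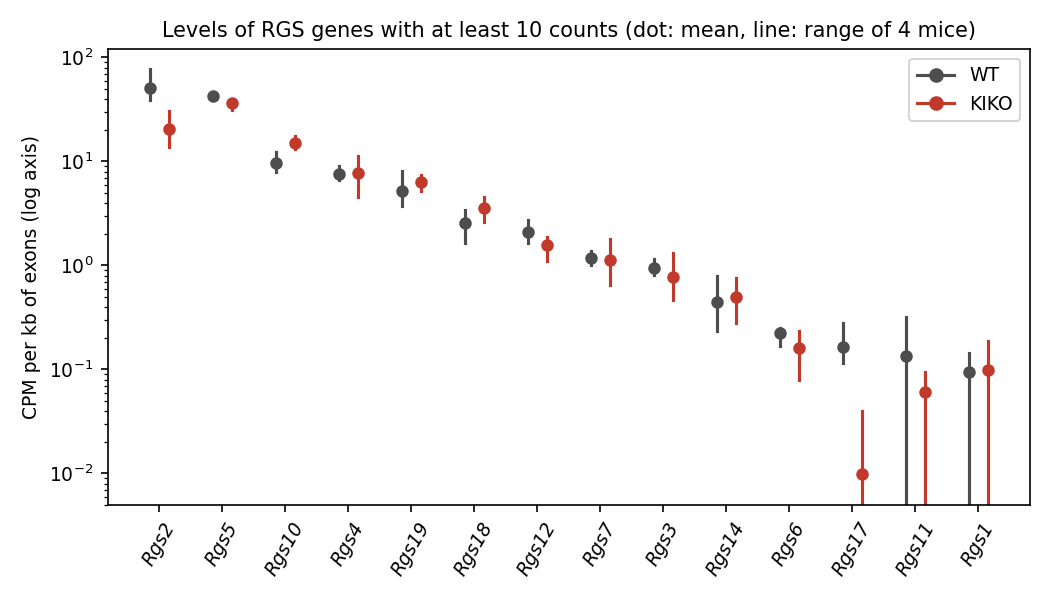
CPM per kb of annotated exons (log axis) for RGS genes with at least 10 counts in all, ordered by their WT mean; dots are means of 4 mice, lines span the lowest to the highest mouse, and a line that reaches the lower edge includes mice at 0. In WT mice *Rgs2*, at a mean of 50.7, and *Rgs5* stand above the others, whereas in KIKO mice *Rgs2*, at 20.6, overlaps *Rgs10*.

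As a share of the counts of all 21 RGS genes, *Rgs2* made up 48.6%, 34.7%, 34.5% and 32.8% in WT mice 1 to 4. In KIKO mice 1 to 4 its share was 18.8%, 32.1%, 14.1% and 21.8%. The share of KIKO mouse 2 was just below that of WT mouse 4, and their 95% Wilson intervals, 29.0% to 35.3% and 30.3% to 35.5%, overlapped. The intervals cover counting error only. The other 20 RGS genes together were at 283 to 312 CPM in WT mice against 234 to 306 CPM in KIKO mice. The ratio of the CPM of *Rgs2* to that of *Rgs5* ran from 0.718 to 1.44 in WT mice. In KIKO mice it ran from 0.274 to 0.769, where KIKO mouse 2 lay within the WT range.

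**Figure D4:**
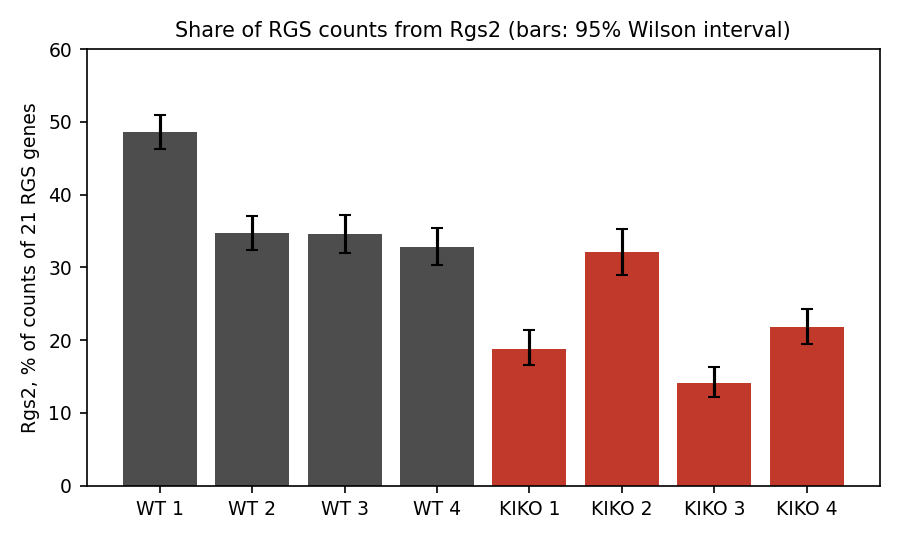
Share of the counts of 21 RGS genes that came from *Rgs2* (y axis, percent) in each mouse; bars are libraries and error bars are 95% Wilson intervals. WT mice lie at 32.8% to 48.6%, KIKO mouse 2 at 32.1% and the other KIKO mice at 14.1% to 21.8%.

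*Rgs2* lies in a cluster of RGS genes on chromosome 1, with *Rgs13*, *Rgs1*, *Rgs21* and *Rgs18* at 135, 238, 513 and 749 kb. Of these only *Rgs18* was tested. The other tested genes within 1000 kb, *Cdc73*, *B3galt2*, *Glrx2*, *Trove2* and *Uchl5*, had log2 fold changes of -0.06, 0.01, 0.42, -0.08 and -0.33. None passed in edgeR, with adjusted p from 0.174 for *Glrx2* to 0.992 for *B3galt2*.

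The genes whose pattern over the 8 libraries was nearest to that of *Rgs2*, by the root mean square difference of centred log2 CPM, were *Gabre*, *Mcf2l*, *Mertk*, *Cpm* and *Vwa3a*. *Gabre* encodes a GABA-A receptor subunit, *Mcf2l* a guanine nucleotide exchange factor of small GTPases, *Mertk* a receptor kinase of phagocytes that takes up dying cells, and *Cpm* carboxypeptidase M. The difference was 0.18, 0.19, 0.22, 0.23 and 0.23 log2 units, and its median over all tested genes was 0.80. These genes were picked for the smallest differences, so their place below the median follows from the choice. The pattern matched includes the difference of *Rgs2* between genotypes, so the choice favours genes with a similar fold change. Their log2 fold changes ran from -1.39 for *Gabre* to -0.97 for *Mertk*. *Mertk*, also 1 of the macrophage markers above, was at 378, 203, 219 and 208 CPM in WT mice and 90.1, 219, 93.6 and 115 CPM in KIKO mice. In it, as in *Rgs2*, WT mouse 1 was the highest WT mouse and KIKO mouse 2 the highest KIKO mouse. This likeness is a description over 8 libraries that share their depth and scaling.

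The proteins around the RGS family were followed in 15 lists, with 159 tested genes besides the members. Most lists are of G protein signalling, while the N-degron pathway and the nitric oxide and cGMP path, described below, lie outside it. Of the 159 genes, 2 passed, which is 1.26% against 0.677% of all genes. The groups did not overlap for 17, which is 10.7% against 8.45%. The N-degron list alone held 4 of these 17. The median log2 fold change was -0.08 in the lists and -0.01 in all genes. *Itpr2*, which encodes an IP3 receptor that releases calcium downstream of Gq, passed as lower, and *Ptafr*, a leukocyte receptor for platelet-activating factor, passed as higher.

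*Itpr2* was at 207, 188, 162 and 161 CPM in WT mice and at 109, 136, 115 and 106 CPM in KIKO mice. All KIKO mice were below all WT mice, and the log2 fold change was -0.62 with a standard error of 0.13 (edgeR, adjusted p = 0.0442). It was -0.42 and did not pass with a correction for length and GC content. Of the 13 tested Gq effectors, 12 had a fold change below 0, 1 of them passing, and the median was -0.20. Such counts of direction, here and in the lists below, are not corrected for transcript length. Across genes, length and log2 fold change had a Spearman correlation of -0.28. *Kalrn*, a guanine nucleotide exchange factor, fell short of the threshold at -1.15 with a standard error of 0.34 (edgeR, adjusted p = 0.112). The phospholipase *Plcb4* was at -0.33 with a standard error of 0.15 (edgeR, adjusted p = 0.296).

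*Ptafr* was at 14.3, 20.6, 14.1 and 16.1 CPM in WT mice and at 24.1, 32.4, 41.1 and 29.9 CPM in KIKO mice. All KIKO mice were above all WT mice, and the log2 fold change was 0.97 with a standard error of 0.19 (edgeR, adjusted p = 0.0415). Of the 16 tested Gi-coupled receptors, 14 had a fold change above 0, 1 of them passing, and the median was 0.25. *P2ry13*, an ADP receptor, was at 1.27 with a standard error of 0.34 (edgeR, adjusted p = 0.0942). It had 11, 8, 8 and 7 counts in WT mice and 20, 11, 16 and 34 in KIKO mice. The filter on low counts thus kept it through the KIKO mice, in which it was higher. *S1pr1*, a sphingosine-1-phosphate receptor of endothelium and lymphocytes, was at -0.51 with a standard error of 0.19 (edgeR, adjusted p = 0.210). Both *Itpr2* and *Ptafr* passed without WT mouse 3 and did not pass when any other mouse was left out.

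Of the 19 tested receptors listed here as Gq-coupled, none passed with all mice and 10 were above 0. *Ptafr* was listed as Gi-coupled only and is not among these 19. Without WT mouse 3, *S1pr2* and *Adra1b* passed (edgeR, adjusted p = 0.0350 and 0.0305), and *Adra1b* also did so without WT mouse 1. *S1pr2* was at 3.80 to 9.38 CPM in WT mice against 13.3 to 19.2 CPM in KIKO mice, with a log2 fold change of 1.12 and a standard error of 0.26 (edgeR, adjusted p = 0.0623). The alpha-1B adrenergic receptor *Adra1b*, which couples catecholamines to Gq, was at 4.69 to 10.1 CPM in WT mice against 13.5 to 15.5 CPM in KIKO mice (log2 fold change 1.005 with a standard error of 0.24, edgeR, adjusted p = 0.0704). For *S1pr2* and *Adra1b*, and for the lysophosphatidic acid receptor *Lpar1* (0.40 with a standard error of 0.14, edgeR, adjusted p = 0.169), the groups did not overlap.

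Of the 12 tested genes listed as Gs-coupled receptors, 10 were below 0 and none passed. The 12 include *Ramp2*, which encodes a partner of receptors and not a receptor, at -0.23. *Mc2r*, the corticotropin receptor, was at 11.7 to 19.1 CPM in WT mice against 8.49 to 11.5 CPM in KIKO mice (log2 fold change -0.63 with a standard error of 0.22, edgeR, adjusted p = 0.167). *Adcyap1r1*, the PACAP receptor, was at -0.89 and the beta-1 adrenergic receptor *Adrb1* at -0.57, with standard errors of 0.38 and 0.25 (edgeR, adjusted p = 0.259 and 0.279). Of the 19 tested effectors of Gs and Gi, 14 were below 0 and none passed. The adenylyl cyclase *Adcy4* was at -0.70 with a standard error of 0.20 (edgeR, adjusted p = 0.100), the cAMP-activated exchange factor *Rapgef3* at -0.48 with 0.15 (edgeR, adjusted p = 0.136) and the protein kinase A subunit *Prkar1b* at -0.83 with 0.29 (edgeR, adjusted p = 0.170).

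The G protein subunits themselves had medians of 0.02 over 11 alpha and 0.03 over 10 beta and gamma subunits, and none passed. *Gnaq*, the alpha subunit to which RGS2 binds, was at 101, 100.2, 88.0 and 101 CPM in WT mice and at 102, 102, 125 and 114 CPM in KIKO mice. These groups did not overlap, but the log2 fold change of 0.18 with a standard error of 0.12 did not pass (edgeR, adjusted p = 0.477). *Gnas* was at -0.26, *Gnal* at 0.93, *Gnb4* at -0.43, *Gng5* at 0.64 and *Gng11* at -0.33, with edgeR adjusted p from 0.170 for *Gnb4* to 0.456 for *Gnal*. Among the 6 tested genes listed as other modulators of G proteins none passed. They include *Cavin1*, a gene of the coat of caveolae. First by adjusted p were *Ric8b*, *Pdcl3* and *Ric8a*, with log2 fold changes of 0.26, 0.28 and 0.12. *Rasd1*, of the same list, was below the filter and is described at the end. Among 8 receptor kinases and arrestins none passed. *Arrdc3*, an arrestin-domain protein that acts on beta-adrenergic receptors, was at 39.8 to 127 CPM in WT mice against 19.5 to 57.6 CPM in KIKO mice (log2 fold change -1.17 with a standard error of 0.32, edgeR, adjusted p = 0.100). *Grk3* was at 0.34 and *Grk4* at -0.43.

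The list of cAMP-responsive genes also holds *Creb1*, *Atf1*, *Crtc1* and *Crtc3*, transcription factors or coactivators that carry the cAMP signal. Of its 15 tested genes, 11 were below 0 and none passed. The clock gene *Per1* was at 54.8, 32.4, 33.1 and 29.8 CPM in WT mice and at 25.7, 26.8, 7.13 and 23.4 CPM in KIKO mice, without overlap (log2 fold change -0.86 with a standard error of 0.30, edgeR, adjusted p = 0.170). The phosphatase *Dusp1* was at -0.61 and the transcription factor *Atf1* at -0.47 (edgeR, adjusted p = 0.275 and 0.215).

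**Figure D5:**
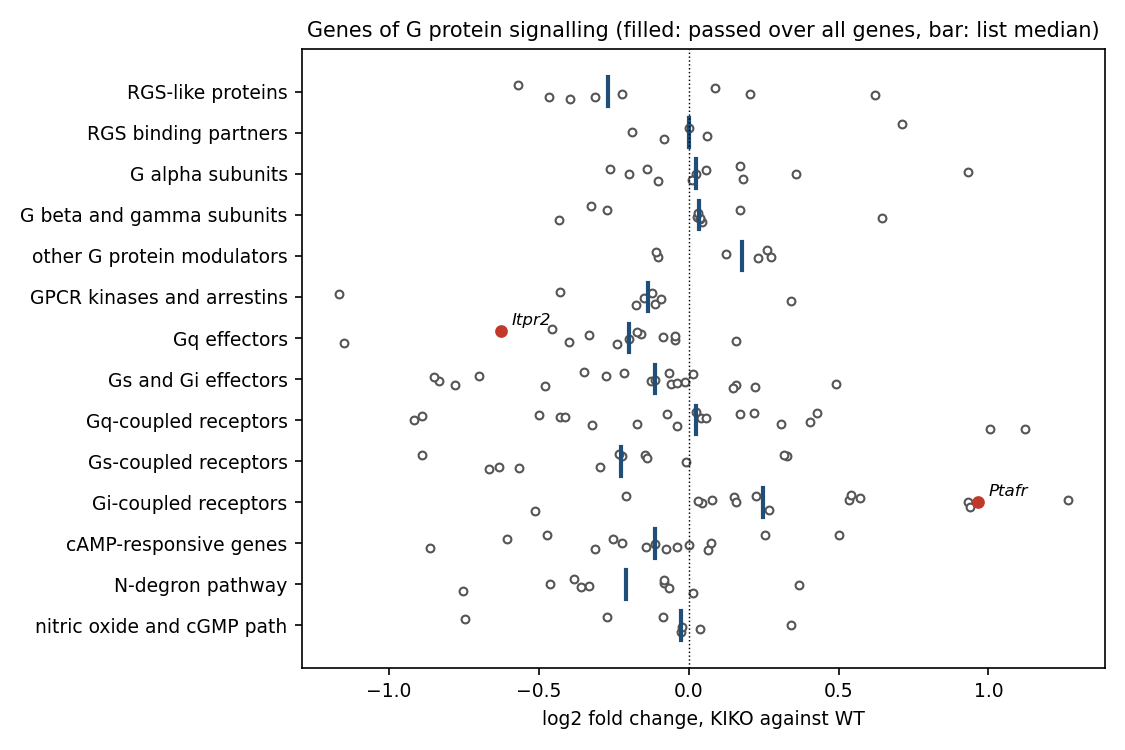
Log2 fold change of KIKO against WT mice (x axis) of the tested genes in the lists of G protein signalling, the N-degron pathway and the nitric oxide and cGMP path. Each dot is a gene, filled dots passed over all genes, and blue bars are list medians. The list medians lie between -0.27 and 0.25, and *Itpr2* and *Ptafr* are the filled dots.

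RGS4, RGS5 and RGS16 are known substrates of the N-degron pathway, which destroys proteins by their first residue. Of the 10 tested genes of the list 8 were below 0, none passed with all mice, and the median was -0.21. The 10 include *Fbxo44*, at -0.75, which encodes an F-box protein that is not part of this pathway. The groups did not overlap for 4, which is to be read beside the 8.45% of all genes. The ubiquitin ligases *Ubr1*, *Ubr2* and *Ubr4* were at -0.46, -0.36 and -0.38 (edgeR, adjusted p = 0.135, 0.187 and 0.168), and *Ubr1* passed without WT mouse 3. In the nitric oxide and cGMP path, whose kinase acts on RGS2 in vascular smooth muscle, none of 7 tested genes passed. *Prkg1*, the gene of that kinase, was below the filter and is named after its values were seen, with 11, 25, 10 and 1 counts in WT and 3, 0, 3 and 3 in KIKO mice. With no filter its log2 fold change was -2.27 with a standard error of 0.61, and it passed (edgeR, adjusted p = 0.0303). *Pde5a*, which breaks down cGMP, was at -0.75, the endothelial nitric oxide synthase *Nos3* at 0.34 and the natriuretic peptide receptor *Npr1* at -0.27 (edgeR, adjusted p = 0.238, 0.388 and 0.483). Among 5 tested binding partners of RGS proteins none passed, with *Gipc1* given above, *Ppp1r9a* at -0.19 and *Ppp1r9b* at -0.08.

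Of 9 genes with an RGS-like domain outside the family, 8 were tested and none passed, with a median of -0.27. The Wnt pathway scaffold *Axin2* was at 2.68 to 4.02 CPM in WT mice against 4.29 to 7.13 CPM in KIKO mice, without overlap (log2 fold change 0.62 with a standard error of 0.30, edgeR, adjusted p = 0.332), and *Axin1* was at 0.20. The exchange factors *Arhgef12*, *Arhgef1* and *Arhgef11*, which act downstream of G12 and G13, were at -0.31, -0.47 and -0.22, the kinase anchor *Akap10* at -0.57, and the sorting nexins *Snx13* and *Snx14* at -0.40 and 0.09. The smallest edgeR adjusted p of these was 0.237, for *Arhgef12*.

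Adipocyte markers were high in all mice, at a sum of 18760 to 22920 CPM in WT mice against 21500 to 25520 CPM in KIKO mice, and 7 of 8 epididymis markers had no count. The 10 mural markers, *Rgs5* being 1 of them, were at a sum of 602 to 666 CPM in WT mice against 434 to 586 CPM in KIKO mice, 9 of 10 being below 0. All 10 endothelial markers were below 0, with *Robo4* passing, at sums of 754 to 997 and 492 to 831 CPM. The Spearman correlation between transcript length and log2 fold change was -0.28 across genes, which are not independent replicates. With a correction for length and GC content the log2 fold change of *Rgs2* was -1.31 and it passed. The part of the cell type differences in the levels of *Rgs2* and *Rgs5* was not tested.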

How the data were processed

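RNA of vWAT from 4 WT and 4 KIKO mice was sequenced by the authors. The deposited count table holds raw counts per Ensembl gene. A deposited log2 table holds values the authors made as log2 of the count, divided by 1 factor per library, plus 1, which was checked on the values and served as an alternative. Trimmomatic, HISAT2 on GRCm38 and DESeq2 were used per the paper and the labels, and StringTie per the paper. The kit and instrument are a stranded TruSeq kit and NextSeq in the paper, and a NovaSeq digital mRNA-seq service in the labels; the annotation release is not given in the sources used here. Symbols and positions came from GENCODE M21, in which 31011 of 31053 genes were found. None of the 3 annotated antisense genes that overlap a member had a count.

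Counts were fitted with edgeR 4.0.16 in R 4.3.3 (TMM, filterByExpr by genotype, quasi-likelihood test, genotype as the only term, Benjamini-Hochberg adjustment over the 11080 genes kept). The standard error is the one implied by the test statistic. Steps were tested on simulated data. The members and lists were chosen with earlier results of these data known. Named genes are the members, the other RGS and RGS-like genes, the genes of each list that passed or up to 3 with the smallest adjusted p, the 5 nearest to *Rgs2* in pattern and its chromosomal neighbours. The gene altered in KIKO mice is not reported here. Alternatives were 2 other scalings, 2 filters, DESeq2 1.42.0, limma 3.58.1 (voom, and trend on the log2 values), the replicate number as a block, a length and GC correction (mgcv 1.9.3), and leaving out each mouse. Same-numbered mice of the 2 genotypes shared only a number. WT mice were littermate controls per the paper, with no litter given per mouse in the labels, and p values measure the spread between these mice.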

Additional observations from a re-analysis of the deposited data

Results flagged for a closer look

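Of 114 groups of 4 mice examined for the genes named here, 7 had 1 mouse far from the other 3 by Dixon's criterion, where chance gives about 1 in 20. *Gnaq* was at 88.0 CPM in WT mouse 3, against 100.2 to 101.1 in the other WT mice. *Gng11* was at 47.2 CPM in KIKO mouse 2, against 58.8 to 60.3. *Pdcl3*, a chaperone-like gene, was at 2.73 CPM in WT mouse 2, against 7.36 to 8.04. *Lpar1* was at 37.9 CPM in WT mouse 2, against 31.4 to 31.5. *Per1* was at 54.8 CPM in WT mouse 1, against 29.8 to 33.1, and at 7.13 CPM in KIKO mouse 3, against 23.4 to 26.8. *Ubr2* was at 189.9 CPM in WT mouse 1, against 146.6 to 153.5. No member of the described RGS set was among them.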

How the results depend on the processing

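Over 17 alternative settings *Rgs2* was lower in KIKO mice in all and passed in 11; its log2 fold change was -1.31 to -1.28 in settings with all 8 mice and -1.55 to -1.03 when 1 mouse was left out. The members *Rgs3*, *Rgs10*, *Rgs12*, *Rgs18* and *Rgs19* kept their sign in all 17. *Rgs4*, near 0, was negative with limma-trend on the authors' values (-0.0043), and without WT replicate 3 (-0.0047), WT replicate 4 (-0.0067) and KIKO replicate 3 (-0.17), with a range of -0.17 to 0.23 over the mice left out. Among named genes near 0 or resting on 1 mouse, *Rgs7* was 0.021 and *Ppp1r9b* 0.016 with the length and GC correction, and with 1 mouse left out *Rgs7* ranged from -0.34 to 0.17, *Snx14* from -0.061 to 0.22, *Ppp1r9b* from -0.25 to 0.013 and *Gnal* from -0.0066 (without KIKO replicate 1) to 1.22. Of all genes, 75 passed; 382 did with no filter on low counts (18092 tested), 284 with DESeq2 (5941 with an adjusted p), 40 with limma-voom, 45 with limma-trend and 32 with the length and GC correction. With 1 mouse left out, 0 to 654 genes, 0 to 2 members and 0 to 12 pathway genes passed, the most without WT mouse 3. Where the count was 0 in edgeR, 1328 to 1533 genes had an unadjusted p under 0.05. Of the pathway genes, 2 passed; 12 did with no filter, 0 with limma-voom, 1 (*Ptafr*) with limma-trend and 1 (*Ptafr*) with the length and GC correction. With the replicate number as a block in edgeR, 0 genes, 0 members and 0 pathway genes passed, with 1427 genes at an unadjusted p under 0.05; deviations of same-numbered mice correlated at -0.15, -0.13, -0.11 and 0.03, so the numbers were not taken as pairs. The cause of these changes was not tested. Depth limits *Rgs14*, *Rgs16*, *Rgs17* and the RGS genes with few counts.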

Other observations

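*Rasd1*, which encodes a Ras-like activator of G protein signalling that glucocorticoids induce, was below the filter on low counts and is named here after its values were seen. It had 13 counts over the WT and 106 over the KIKO libraries. Its level was 0.317, 1.817, 1.004 and 1.005 CPM in WT mice and 5.94, 1.599, 17.2 and 9.08 CPM in KIKO mice, so that KIKO mouse 2 lay within the WT range and the other KIKO mice above it. With no filter the log2 fold change was 2.996 with a standard error of 0.48 (edgeR, adjusted p = 6.88e-05). *Rasd1* was also kept by the filter, and passed, when WT mouse 3 or KIKO mouse 2 was left out. It did not pass when any other mouse was left out. Its counts were 1, 6, 3 and 3 in WT mice and 18, 4, 53 and 31 in KIKO mice. Where it was kept, this was through the KIKO mice in which it was high, so these passes are no independent support. Leaving out KIKO mouse 2 also took away the KIKO mouse within the WT range.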
